A study of Homo sapiens with 6 samples.

Results

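The genes described here encode enzymes of asparagine, serine, cysteine and folate one-carbon metabolism, together with the amino acid sensor Sestrin 2. They were chosen from a list of 10 genes known as targets of the transcription factor ATF4: ASNS, PHGDH, PSAT1, PSPH, CTH, CBS, SHMT2, MTHFD2, ALDH1L2 and SESN2. A gene was measured through every probe set annotated to it and to no other gene. By that rule 9 of the 10 were measured, by 30 of the 44988 probe sets that carried 1 gene, out of 18132 genes in all. No probe set carried CBS alone, because each that detects it was also annotated to LOC102724560, a near-identical copy. The arrays hold RNA of T24, a human bladder carcinoma cell line in wide use, cultured with fetal bovine serum. In the MAP30 group the cells received this protein at 10 µg/ml and were harvested after 48 hours (3 arrays), and the control group is labelled only as normal T24 cells (3 arrays). What the control cells were given, and for how long, is not stated in the sources used here. MAP30 comes from bitter melon and belongs to the plant toxins that inactivate ribosomes by depurinating their RNA. Whether the arrays of a group stand for separate cultures is not given, and the p-values therefore cover only the variation among these arrays, which may be technical.

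As background, ATF4 is a leucine zipper factor whose protein is made when stress kinases phosphorylate the initiation factor eIF2. With partners of the C/EBP family it binds composite elements near genes for amino acid synthesis and uptake. In proliferating tumour cells, serine made from glycolytic 3-phosphoglycerate feeds the mitochondrial folate pathway, whose formate is used to build purines and thymidylate, and serine joined to homocysteine gives cysteine.

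The element through which ATF4 and C/EBP factors act has the core TGATGNAA, in which N is any base. It was searched on both strands in the RefSeq promoter windows of build GRCh38.p14, each 300 bases long, from 250 before to 50 after a start site. The 7 members with an entry were ASNS, PHGDH, PSAT1, CBS, CTH, MTHFD2 and SESN2. Of these 7 genes, only ASNS held the core, in 1 of its windows. Of all 35116 promoter windows 1270 held it (3.62%), and of the 20403 windows of genes on the arrays 549 did (2.69%). These percentages count windows, and a gene can have several, so they are not directly comparable with counts of genes. Among 47 other genes with an entry from the lists of ATF4 targets and of regulators of the amino acid response, 16 held it. These lists were drawn from known ATF4 biology, so that share is a description of them. The ASNS window and 3 of the others are printed because they let the core be compared between genes that rose and a gene that fell. All are written along the gene's own strand, with the match in capitals. A match read on the opposite strand appears as TTGCATCA. The ASNS stretch lies on the minus strand at chr7:97872423-97872522, and its match begins at position -68 relative to the start site. The CEBPG stretch is on the plus strand at chr19:33374057-33374092, the CHAC1 stretch on the plus strand at chr15:40953248-40953283 and the AARS1 stretch on the minus strand at chr16:70289672-70289707.
ASNS: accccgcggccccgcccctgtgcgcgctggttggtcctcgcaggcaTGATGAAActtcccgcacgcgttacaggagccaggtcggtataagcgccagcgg
CEBPG: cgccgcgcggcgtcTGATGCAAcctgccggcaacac
CHAC1: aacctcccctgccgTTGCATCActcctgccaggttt
AARS1: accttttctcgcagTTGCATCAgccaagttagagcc
Of the 16 other genes with the core, 7 were higher with MAP30, 7 were lower and 2 did not pass. Of the 31 measured without it, 12 were higher, 13 lower and 6 did not pass. Over all 18132 genes 26.9% were called higher and 30.6% lower. A match is a run of letters, not a shown binding site, and a window without one says nothing of elements elsewhere.

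The values are log expression, read as log2, centred on the median of the 6 arrays in each probe set, so 0 marks that median and no level can be read from them. A fold change is the difference of the group means on the log2 scale, as MAP30 minus control, given with its standard error (SE). It was tested with limma and called at an adjusted p under 0.05. Between arrays of 1 group the SD of the difference over genes ran from 0.105 to 0.121, and between groups from 0.617 to 0.621. The log2 ratio of 3' over 5' control probe sets, a sign of RNA integrity, was higher with MAP30 by 0.158 for ACTB and by 0.0426 for GAPDH. Its part in the results was not tested. Because levels are absent, the presence of urothelial markers could not be checked. Of 10 such markers 2 were higher and 2 lower. Of the marker genes of other cell types, 2 of 5 leukocyte, 2 of 5 endothelial and 1 of 5 fibroblast genes were higher, and 1 leukocyte gene was lower. Among these called genes the leukocyte gene ITGAM rose by 2.76, and the others lay between -0.26 (CD14) and 0.22 (KDR). Over all genes 26.9% were called higher and 30.6% lower. Fewer cells of a type and less RNA per cell cannot be told apart in such samples.

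The 9 measured members did not move as a unit. CTH, SESN2, ASNS and ALDH1L2 rose, PSAT1, PHGDH, MTHFD2 and PSPH fell, and SHMT2 did not pass. Thus 4 were higher and 4 lower, where 26.9% of all 18132 genes were called higher and 30.6% lower (57.5% either way). The groups did not overlap in 8 of the 9, against 62.6% of all genes. A change of at least 2-fold was called for 4 of them, PSAT1, PHGDH, CTH and SESN2, against 9.54% of all genes. The median log2 fold change of the members was -0.02, and that of all genes was also -0.02.

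**Figure D1:**
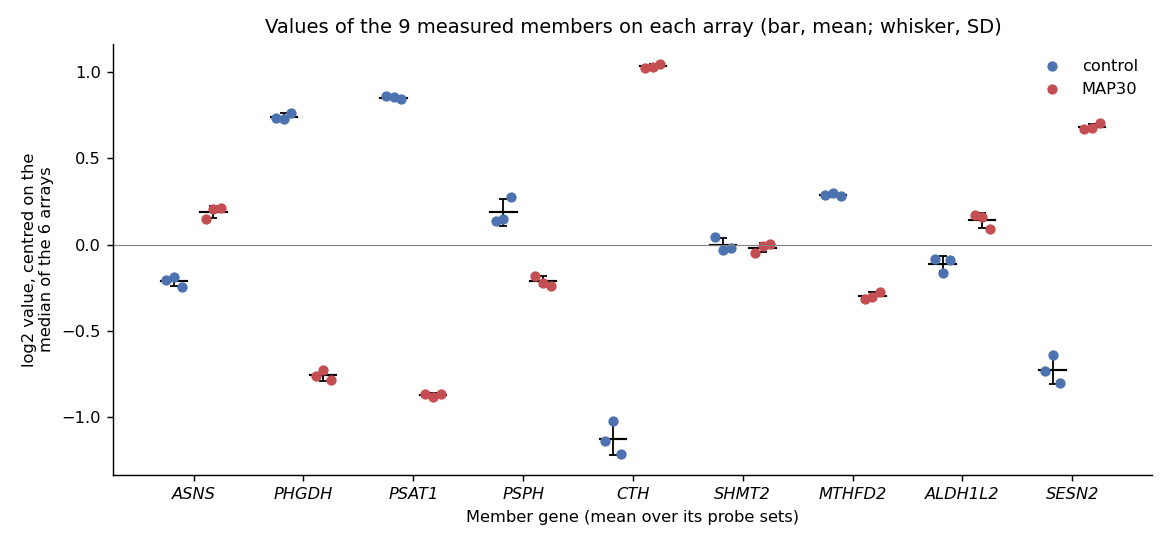
Centred log2 values (vertical axis) of the 9 measured members on the 3 control arrays (blue) and the 3 MAP30 arrays (red), with the group mean as a bar and the SD as a whisker. CTH runs from -1.12 in control to 1.03 with MAP30 and PSAT1 from 0.85 to -0.87, while the arrays of the groups overlap for SHMT2.

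The genes for the enzymes that make serine were lower with MAP30, all 3 of them, PSPH on 2 of its 3 probe sets. PHGDH encodes phosphoglycerate dehydrogenase, which commits 3-phosphoglycerate to the pathway. Its centred log2 value was 0.74, 0.73 and 0.76 in the control arrays and -0.76, -0.73 and -0.79 in the MAP30 arrays. The groups lay far apart, and PHGDH was 2.83-fold lower (log2 fold change -1.50 ± 0.03 SE, adjusted p = 3.77e-08). This rested on a single probe set. PSAT1 encodes phosphoserine aminotransferase, the next enzyme, which moves an amino group from glutamate. It stood at 0.86, 0.86 and 0.84 in control and at -0.87, -0.88 and -0.86 with MAP30. PSAT1 was 3.30-fold lower (-1.72 ± 0.03 SE, adjusted p = 1.38e-08), the largest fall among the members and rank 89 among the falls of all genes. PHGDH held rank 172 there.

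PSPH, the phosphatase that releases free serine in the last step, fell less. Its values were 0.14, 0.15 and 0.28 in control and -0.18, -0.22 and -0.24 with MAP30. The groups were apart, with control replicate 3 above the other control arrays, and PSPH was 1.32-fold lower (-0.40 ± 0.05 SE, adjusted p = 0.00015). The 95% confidence interval of its log2 fold change, -0.51 to -0.29, lay wholly above those of PHGDH (-1.58 to -1.42) and PSAT1 (-1.79 to -1.65).

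In the mitochondrial folate pathway the members parted. MTHFD2 encodes the dehydrogenase and cyclohydrolase that oxidizes methylene-tetrahydrofolate in mitochondria and is prominent in proliferating cells. It was at 0.29, 0.30 and 0.28 in control and at -0.31, -0.30 and -0.27 with MAP30. The arrays of each group lay close together, and MTHFD2 was 1.50-fold lower (-0.58 ± 0.03 SE, adjusted p = 1.89e-06). SHMT2 encodes the mitochondrial serine hydroxymethyltransferase, which splits serine into glycine and a one-carbon unit. Its values were 0.04, -0.03 and -0.02 in control and -0.05, -0.01 and 0.00 with MAP30. The groups overlapped and SHMT2 did not pass (-0.02 ± 0.04 SE, 95% confidence interval -0.10 to 0.07, adjusted p = 0.755). ALDH1L2, which oxidizes 10-formyl-tetrahydrofolate in mitochondria, stood at -0.08, -0.16 and -0.09 in control and at 0.17, 0.16 and 0.09 with MAP30. It rose 1.19-fold (0.25 ± 0.04 SE, adjusted p = 0.000945), the smallest of the called changes among the members.

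CTH moved furthest. It encodes cystathionine gamma-lyase, which cleaves cystathionine to cysteine in the last step of transsulfuration. The control arrays read -1.14, -1.02 and -1.21 and the MAP30 arrays 1.02, 1.03 and 1.05. All MAP30 arrays were above all control arrays, and CTH rose 4.46-fold (2.16 ± 0.05 SE, adjusted p = 4.36e-08), at rank 178 among the rises of all genes. As with PHGDH, a single probe set carried it. CBS, which makes cystathionine in the step before, could not be read under the rule.

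ASNS encodes asparagine synthetase, which makes asparagine from aspartate and glutamine, and its promoter is the 1 printed above that holds the core among the members. Its values were -0.20, -0.19 and -0.24 in control and 0.15, 0.21 and 0.21 with MAP30. The groups did not overlap, and ASNS rose 1.32-fold (0.40 ± 0.04 SE, adjusted p = 3.29e-05). SESN2 encodes Sestrin 2, a leucine-binding protein that restrains mTORC1 through the GATOR2 complex. It stood at -0.73, -0.64 and -0.80 in control and at 0.67, 0.68 and 0.70 with MAP30. SESN2 rose 2.65-fold (1.41 ± 0.05 SE, adjusted p = 1.66e-07), and every MAP30 array was above every control array.

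Ordered by size, the changes ran from CTH and SESN2 through ASNS and ALDH1L2 to SHMT2, and on through PSPH, MTHFD2 and PHGDH to PSAT1. The confidence intervals of ASNS (0.32 to 0.49) and ALDH1L2 (0.16 to 0.35) overlapped. All other neighbours in this order had intervals apart, those of PSPH (-0.51 to -0.29) and MTHFD2 (-0.66 to -0.51) only just. The PSPH mean includes the probe set 11763252_x_at, at 0.01. Its other probe sets, at -0.51 and -0.69, lay on both sides of the MTHFD2 mean of -0.58, so the order of PSPH and MTHFD2 is not settled. Probe sets can differ in how steeply they respond, so these sizes rank the measured values and not the amounts of RNA.

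The probe sets of a gene mostly moved alike. Of the 30 member probe sets 9 were higher, 17 lower and 4 did not pass, where 26.5% of all 44988 probe sets were called higher and 30.3% lower (56.8% either way). All 8 of PSAT1 fell, with log2 fold changes from -1.94 to -1.51. The 5 of MTHFD2 fell too, from -0.60 to -0.57, a range of 0.03. All 4 of ASNS rose, by 0.33 to 0.45, both of ALDH1L2 by 0.21 and 0.29, and both of SESN2 by 1.30 and 1.52. PSPH was uneven. Its probe sets 11754138_s_at and 11730796_x_at fell (-0.69 and -0.51), while 11763252_x_at stood at 0.01 ± 0.10 SE and did not pass (adjusted p = 0.967). On that probe set the control arrays had an SD of 0.217, against 0.003 and 0.017 on the others. For SHMT2, 11746438_a_at was lower by 0.14 ± 0.04 SE (adjusted p = 0.0199), 11747537_x_at stood at -0.08, and 11750992_x_at and 11756615_x_at stood at 0.08 and 0.09. These last 3 did not pass. The near-zero value of SHMT2 was thus a mean over probe sets of both signs.

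**Figure D2:**
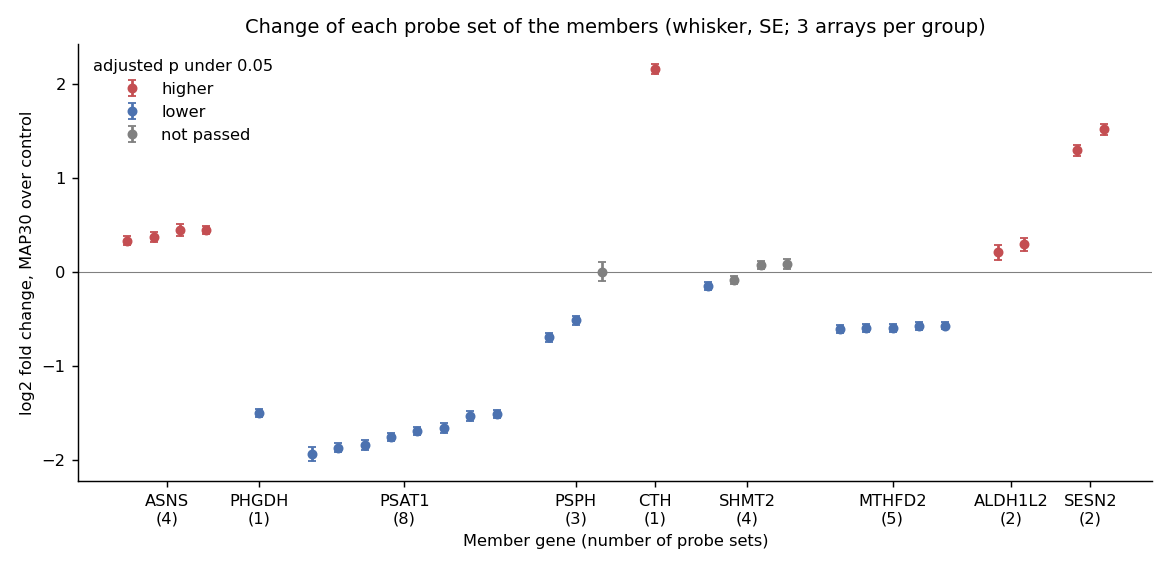
Log2 fold change of MAP30 over control (vertical axis) for each of the 30 member probe sets, with the SE as a whisker and the colour giving the call at an adjusted p under 0.05. The 8 probe sets of PSAT1 and the 5 of MTHFD2 all lie below 0, whereas those of SHMT2 lie on both sides of it and 1 of the 3 of PSPH is at 0.01.

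Each probe set was also compared with the mean of the other probe sets of its gene, in a limma fit over the 38590 probe sets of genes with more than 1. In that fit 36.0% of all probe sets differed from their partners. Among the members none of the probe sets of ASNS, MTHFD2 or ALDH1L2 did. In PSPH, 11763252_x_at lay above the others by 0.61 (adjusted p = 0.00394) and 11754138_s_at below them by 0.44 (adjusted p = 0.00314). In SESN2 the probe sets differed by 0.23 (adjusted p = 0.0393). In PSAT1 11747348_a_at and 11741479_a_at lay above the rest by 0.24 and 0.22 (adjusted p = 0.00882 and 0.0279), and in SHMT2 11746438_a_at lay below by 0.17 (adjusted p = 0.0258).

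The scale on which the arrays are compared mattered for the small changes. With each array centred on 18 hybridization control probe sets, which are spiked in before hybridization, every fold change dropped by 0.21. With each array centred on 24 poly-A control probe sets, spiked in as RNA, it rose by 0.16. The hybridization controls did not shift evenly, from 0.00 to 0.40. The median of all genes moved from -0.02 to -0.23 and 0.14. CTH, SESN2, PSAT1, PHGDH, MTHFD2, PSPH and ASNS kept direction and call under both. ASNS was at 0.19 with the first (adjusted p = 0.00939) and 0.56 with the second, and PSPH at -0.61 and -0.24. ALDH1L2 lost its call with hybridization-control centring, at 0.04 (adjusted p = 0.532, in a range from 0.000135 to 0.532 over the alternatives). SHMT2 was called lower at -0.22 (adjusted p = 0.00427) with the first and higher at 0.15 (adjusted p = 0.00642) with the second, so no direction can be given for it.

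**Figure D3:**
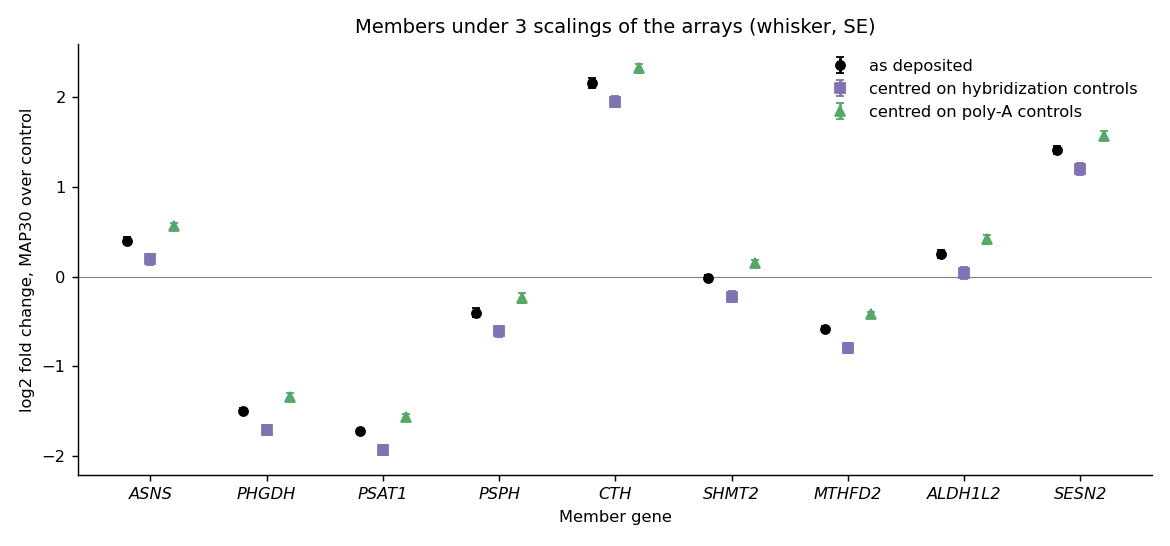
Log2 fold change of MAP30 over control (vertical axis, SE as whisker) of the 9 measured members as deposited (circles), centred on hybridization controls (squares) and centred on poly-A controls (triangles). SHMT2 changes sign, from -0.22 to 0.15, ALDH1L2 comes to 0.04 with hybridization-control centring, and the other 7 stay on their side of 0.

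Paralogs of the members were read on the same arrays, and differences within a pair were not tested. SHMT1, the cytosolic serine hydroxymethyltransferase, was lower by 1.21 ± 0.04 SE (adjusted p = 2.51e-07), whereas SHMT2 did not pass. MTHFD2L, the other mitochondrial dehydrogenase of this type, was at -0.33, -0.26 and -0.19 in control and at 0.17, 0.23 and 0.25 with MAP30. It rose by 0.47 ± 0.05 SE (adjusted p = 4.94e-05), opposite to MTHFD2. The cytosolic trifunctional enzyme gene MTHFD1 fell by 0.80 and MTHFD1L, whose product releases formate in mitochondria, by 0.47. ALDH1L1, the cytosolic counterpart of ALDH1L2, stood at 0.05 ± 0.08 SE and did not pass. Of the other sestrins SESN1 fell by 0.49 ± 0.06 SE (adjusted p = 0.000169), opposite to SESN2, and SESN3 stood at 0.04 without passing. ALDH1L1 and SESN3 changed sign with scaling, at -0.16 and -0.17 with hybridization-control centring and at 0.22 and 0.21 with poly-A-control centring, and SESN3 passed both times.

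Around the serine and folate members, 21 of 24 listed enzymes and carriers of the same pathways were measured. Of these 13 were lower and 5 higher, with a median log2 fold change of -0.30. Over all genes 30.6% were lower and 26.9% higher, which is the background for every list below. The largest falls were those of TYMS (-2.07), which makes thymidylate with a folate one-carbon unit, and GCSH (-1.50), the H protein of the glycine cleavage system. GLDC (1.81), the glycine decarboxylase of that same system, and MTHFD2L rose most. With hybridization-control centring 2 of the list were higher and 15 lower, with poly-A-control centring 8 and 11, and with the median over probe sets 3 were higher. Of all 18132 genes, 3087 were higher and 11558 lower with the first centring, and 8906 and 3754 with the second. The re-centred counts of the lists below have the same background. Of the genes named beside the members, MTHFD1, GCSH, GGCT, CHAC2, OAT, HPRT1 and ATIC were read on a single probe set. So were ATF4, CEBPB, PPP1R15A, VLDLR, RRAGB and CASTOR1.

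Around CTH, the 22 genes of the methionine cycle, transsulfuration and glutathione were lower in 12 and higher in 5, with a median of -0.31. MAT2A (-1.46), which makes S-adenosylmethionine, and GGCT (-1.20), an enzyme of glutathione breakdown, fell most. CHAC1 (0.68) and CHAC2 (0.54), which degrade glutathione, rose most. The split became 3 higher and 17 lower with hybridization-control and 7 and 11 with poly-A-control centring. The rise of CTH by 2.16 was above that of every gene in this list. Around ASNS, of 17 measured enzymes of aspartate, glutamate, proline and branched-chain metabolism 11 fell and 2 rose around a median of -0.32. ALDH18A1 (-1.01), which starts proline synthesis, and OAT (-0.96) fell most, and ASL (0.59) and BCAT1 (0.20) rose, though BCAT1 stood at -0.01 with hybridization-control centring and lost its call there and with only the probe sets whose names end in _at or _a_at (0.08). Centring on the hybridization controls left 1 of this list higher and 14 lower, and poly-A-control centring gave 5 and 10. The purine list, which holds genes of salvage such as HPRT1 as well as of synthesis, was lower in 10 of 14 genes and higher in 2, with a median of -0.37. PRPS2 (-1.70) and HPRT1 (-1.20) fell most, and IMPDH2 (0.35) and ATIC (0.13) rose. ATIC stood at -0.08 with hybridization-control centring and did not pass there, nor without control replicate 3 (0.10) or MAP30 replicate 2 (0.12).

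**Figure D4:**
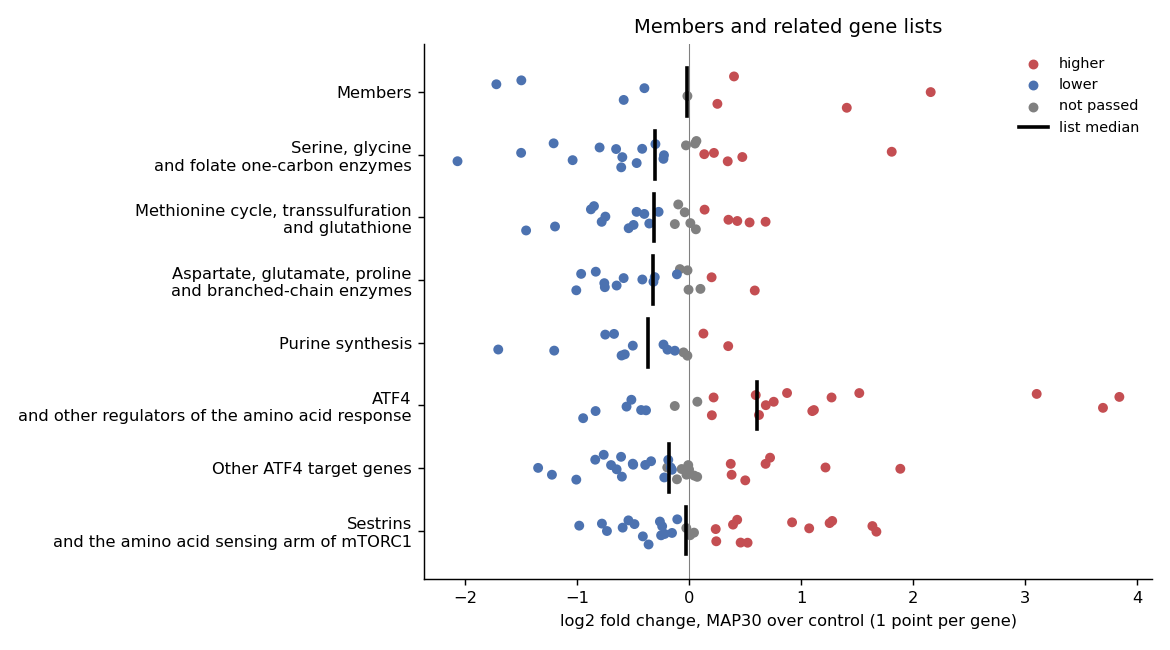
Log2 fold change of MAP30 over control (horizontal axis, 1 point per gene) for the members and 7 lists of related genes, coloured by call, with the list median as a black line. The 4 metabolic lists have medians between -0.37 and -0.30, the regulators of the amino acid response have a median of 0.61, and the members spread from -1.72 to 2.16.

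The list of ATF4 and other regulators of the amino acid response moved otherwise. Its 22 genes include ATF4, leucine zipper and C/EBP factors, MYC, NFE2L1, NFE2L2 and the eIF2 kinases and phosphatase subunits. Some, such as DDIT3, ATF3 and PPP1R15A, are also ATF4 targets. Of the 22, 14 rose and 6 fell around a median of 0.61. Over all genes 26.9% were higher and 30.6% lower. ATF4 itself, on 1 probe set, rose by 1.52 ± 0.04 SE (adjusted p = 4.11e-08). DDIT3, which encodes CHOP, rose by 3.84 and PPP1R15A, which directs dephosphorylation of eIF2, by 3.70. ATF3 rose by 3.10, CEBPB by 1.27, ATF5 by 0.76 and CEBPG by 0.20, though CEBPG stood at -0.01 with hybridization-control centring. Among the eIF2 kinase genes EIF2AK3 rose by 0.87, while EIF2AK1 (-0.56), EIF2AK2 (-0.84) and EIF2AK4 (-0.38) fell. JDP2 (-0.95), a repressor of the same leucine zipper class, and EIF2AK2 fell most in the list. With only the probe sets of the suffixes _at and _a_at, 9 of this list were higher and 3 lower. Fewer of its genes were then measured. ATF4, DDIT3, PPP1R15A and CEBPB had no probe set left there, so their rises could not be checked in that setting. ATF4 protein and its binding were not measured.

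Other known targets of ATF4, outside the members, also went both ways. Targets already listed among the regulators, such as DDIT3, ATF3 and PPP1R15A, were not counted here. Of 32 measured genes 7 rose and 17 fell around a median of -0.18. Over all genes 26.9% were higher and 30.6% lower. The split depends on that sorting of genes into lists. CHAC1 was also counted in the methionine cycle list above, and PYCR1 and ALDH18A1 in the list of aspartate and proline enzymes. SLC3A2 (1.89), the heavy chain of amino acid exchangers, and KLHL24 (1.22) rose most, and VLDLR (-1.35) and EIF4EBP1 (-1.23), a translation repressor, fell most. TRIB3, a pseudokinase that feeds back on ATF4, stood at -0.00 ± 0.03 SE and did not pass. It was called lower at -0.21 (adjusted p = 0.00393) with hybridization-control centring and higher at 0.16 (adjusted p = 0.00267) with poly-A-control centring, so no direction can be given for it. The first of these settings gave 7 of the list higher and 24 lower, the other 11 and 13. Of the genes whose printed promoter stretches share the core TGATGNAA with that of ASNS, CHAC1 rose by 0.68, CEBPG by 0.20 and AARS1, an aminoacyl-tRNA synthetase, fell by 0.60.

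SESN2 acts on mTORC1 through proteins that sense amino acids at the lysosome. Of 29 measured genes of that arm, 12 rose and 14 fell around a median of -0.03, where 26.9% of all genes were higher and 30.6% lower. The balance turned with scaling, to 10 higher and 17 lower with hybridization-control centring and 15 higher and 8 lower with poly-A-control centring. FNIP1 (1.67), a partner of folliculin, and RRAGB (1.64), a Rag GTPase, rose most, and CASTOR1 (-0.98), the arginine sensor, and LAMTOR2 (-0.78) fell most. SESN2, at 1.41, lay below FNIP1 and RRAGB and above the others of this set.

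By Euclidean distance over the 6 arrays, the genes nearest to CTH were RASGRF1 (distance 0.0476), ZNF562 (0.128) and ANK3 (0.135), with log2 fold changes from 2.11 to 2.18. Those nearest to PSAT1 were CD46 (0.0396), EEF2K (0.0648) and PXMP2 (0.0666), with fold changes from -1.75 to -1.72. With 2 groups, such closeness reflects a like difference between them and a like spread within them.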

How the data were processed

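The authors deposited expression values on a log scale, read here as log2, for 49395 probe sets on each of 6 Affymetrix arrays. The target RNA was amplified from the 3' end and biotin-labelled, per the labels' protocols. RMA and MAS5 appear in the submitters' processing notes, with no word on what each was used for. No source states the base of the logarithm. Every probe set has a median of 0 across the arrays (largest deviation 5.0e-07), so dim probes could not be filtered. Precision is limited by the number of arrays.

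Through the platform annotation 44988 probe sets had 1 gene, 1832 several and 2473 none, and 102 were controls. Probe sets with 1 gene were averaged per gene. Genes, and separately probe sets, were fitted with limma 3.58.1 (lmFit and eBayes, R 4.3.3), two-sided, with Benjamini-Hochberg adjustment over all genes or all probe sets. Tables and figures used Python 3.11.15, pandas 2.3.3 and matplotlib 3.10.9. In simulated data of 18132 genes, 62% of 1.25-fold, 90% of 1.5-fold, 94% of 2-fold and 100% of 4-fold changes were recovered, with 2 false calls. Only 50 genes were changed per fold, with independent noise of the size seen between these arrays. In the data 57.5% of genes were called, so these rates need not hold there, nor between separate cultures.

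The members and lists were chosen with earlier results of these data known. Genes named outside the members were a set of fixed regulators and paralogs, up to 2 of the largest called rises and 2 of the largest called falls of each list with groups apart, the 3 genes nearest to the members of largest rise and fall, and AARS1, chosen for its promoter match after its value was seen. Alternatives were a replicate block, leaving out each array, 3 other scalings, robust eBayes, the median over probe sets and a restriction to the suffixes _at and _a_at. Replicate numbers are shared between groups, but same-numbered arrays did not deviate together.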

Additional observations from a re-analysis of the deposited data

How the results depend on the processing

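The members' counts of 4 higher and 4 lower genes were the same with each array left out, with quantile normalization, with robust eBayes and with the median over probe sets. With hybridization-control centring they were 3 and 5 and with poly-A-control centring 5 and 4. With only the suffixes _at and _a_at they were again 4 and 4, but SHMT2 was lower (-0.14, adjusted p = 0.0129) and PSPH had no probe set left. With the replicate number as a replicate block they were 4 and 4, and over all genes 4838 higher and 5483 lower against 4878 and 5553 without it. Deviations of same-numbered arrays correlated at -0.04, 0.07 and 0.01, so the numbers were not taken as pairs. With each array left out, genes called higher ran from 4555 to 4776 and lower from 5189 to 5452. With hybridization-control centring 3087 genes were higher and 11558 lower, 7933 probe sets higher and 25944 lower, and 5 member probe sets higher in place of 9. With poly-A-control centring 8906 genes were higher and 3754 lower, and 19767 probe sets higher.

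Among the members, the fixed regulators and paralogs, the genes named from the lists and AARS1, the sign changed with hybridization-control centring in ALDH1L1 (-0.16), ATIC (-0.081), BCAT1 (-0.008), CEBPG (-0.0057) and SESN3 (-0.17), and with poly-A-control centring in SHMT2 (0.15) and TRIB3 (0.16), both of which then passed. With quantile normalization SHMT2 was at 0.0094 and TRIB3 at 0.0189. With each array left out, SHMT2 ran from -0.0289 to 0.0069, the latter without control replicate 1, and TRIB3 from -0.0116 to 0.0091. Neither passed with quantile normalization or with an array left out. The shift that each centring applies equally to all genes accounts by construction for its sign changes; for the others the cause was not tested. Of the related lists, purine synthesis had 1 gene higher in place of 2 with hybridization-control centring and without control replicate 3 or MAP30 replicate 2, and 6 lower in place of 10 with only the suffixes _at and _a_at. The aspartate and proline list had 1 higher with hybridization-control centring and with those suffixes, and 5 with poly-A-control centring. The methionine list had 3 higher with hybridization-control centring, and the amino acid sensing list 15 higher and 8 lower with poly-A-control centring.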

Other observations

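Outside the rule, 6 probe sets were annotated both to CBS, which makes cystathionine from serine and homocysteine, and to LOC102724560. All 6 were lower with MAP30, with differences of the group means from -2.10 to -1.13 on the log2 scale, and on each of them every MAP30 array was below every control array. They cannot be assigned to either gene and were not tested. They move opposite to CTH, the next enzyme of the same route. A probe set annotated to PHGDH and MZT2B together stood at -0.48, a smaller difference than the -1.50 on the probe set of PHGDH alone.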
